A study of Homo sapiens with 9 samples.

Results

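The genes described are the cyclins of the G1 phase, the kinases they bind and 2 inhibitors of those kinases, chosen by symbol from a list of 10: CCND1, CCND2, CCND3, CCNE1, CCNE2, CDK2, CDK4, CDK6, CDKN1B and CDKN2C. Of these, 9 were analysed among the 23727 genes of the count table, and 8 passed the filter on low counts among 15273 tested genes. CCND2 was not analysed here, and CDKN2C had no count in any library and so was not tested. RNA sequencing was done on LN229, an established human glioblastoma line; 1 label field spells it LN299. The medium of all groups held glucose at 17 mM, glutamine at 2 mM and fetal bovine serum at 10%. The 3 groups were untreated cells at 0 h, cells given 500 µM sodium formate for 8 h and cells given 500 µM sodium formate for 24 h, with 3 libraries each. Every untreated library was taken at 0 h, so formate and time in culture cannot be told apart. The labels do not say that replicates came from separate cultures, so p-values measure only the spread between these libraries, which may be technical.

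In a dividing cell, D-type cyclins (CCND1, CCND2, CCND3) bind CDK4 or CDK6 in G1 and start to phosphorylate the retinoblastoma protein RB1, which releases E2F transcription factors. E2F factors then drive the genes of the E-type cyclins (CCNE1, CCNE2), which bind CDK2 and carry the cell into S phase, along with many genes of DNA replication. The INK4 inhibitors, among them CDKN2C (p18), block CDK4 and CDK6, the CIP/KIP inhibitor CDKN1B (p27) restrains CDK2, and in glioblastoma the INK4 genes and the CDK4 and CDK6 genes are known sites of copy number change.

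Short stretches of the coding sequences show a motif that CCND1 and CCND3 hold and CCNE1 does not, and what the 3 kinases share. They were read from GENCODE release 29 transcripts. The capitals in both D-type cyclins mark the codons of the LxCxE motif (leucine, any residue, cysteine, any residue, glutamate), through which such proteins dock on RB1; it stands at codons 5 to 9 in CCND1 and 3 to 7 in CCND3. The coding sequence of CCNE1 held no such match, and its first 15 codons are shown for comparison.
CCND1: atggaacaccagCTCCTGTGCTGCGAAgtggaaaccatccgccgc
CCND3: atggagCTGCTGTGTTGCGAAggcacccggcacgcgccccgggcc
CCNE1: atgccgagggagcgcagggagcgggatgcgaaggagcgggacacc
In the kinases the capitals mark the codons of the helix that contacts the cyclin, named PSTAIRE after its residues in CDK2, at codons 45 to 51 in CDK2, 50 to 56 in CDK4 and 55 to 61 in CDK6.
CDK2: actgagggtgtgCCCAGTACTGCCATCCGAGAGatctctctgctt
CDK4: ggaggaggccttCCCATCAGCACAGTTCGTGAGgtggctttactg
CDK6: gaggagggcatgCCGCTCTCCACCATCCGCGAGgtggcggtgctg

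The libraries held 22222298 to 25848242 counts, and 20719 to 21354 genes had at least 1 count. Untreated replicate 1 stood apart: the chi-square per degree of freedom against the other untreated libraries was 52.2 and 54.6, while those differed from each other by 7.91. Replicate 1 also lay farther from the others within the 8 h group, at 20.5 and 21.6 against 9.96. Within the 24 h group it did so too, at 12.7 and 22.3 against 8.11. Calls of the G1 genes and of the other tested CDK inhibitors that rest on single libraries are therefore given with and without them. The glioma and mesenchymal markers VIM (3196 to 6279 CPM, library-scaled counts), CD44 and NES were high in every library, whereas the astrocyte marker GFAP was near 0, at 0.129 to 0.425 CPM. SOX2 (67.2 to 103 CPM) and EGFR (73.2 to 137 CPM) were measured in every library. S100B, a glial calcium-binding protein, stood at 59.2 to 177 CPM in the libraries of 0 h and 8 h and at 288 to 395 CPM at 24 h (log2 fold change 1.38 at 24 h against 0 h, adjusted p = 0.046). It was the 1 of 6 tested markers of this list that passed, and its part in the results at 24 h was not tested. Markers of immune, endothelial and epithelial cells (PTPRC, CD68, PECAM1, EPCAM, KRT20) reached at most 0.133 CPM.

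At 24 h, CCND1 was lower and CCNE2 higher than in untreated cells, and these were the 2 of the 8 tested G1 genes that passed the threshold, an adjusted p under 0.05. The count compares with 4.25% of all tested genes, 2.47% called higher and 1.77% called lower. CCND1 fell 1.68-fold and CCNE2 rose 1.76-fold. The median log2 fold change of the 8 genes was -0.12, against 0.01 over all tested genes. None of the 8 passed at 8 h, where 0% of all tested genes did. With the replicate number as a block, the same 2 genes passed at 24 h, 1 in each direction, against 24.1% of all tested genes.

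CCND1 encodes cyclin D1, the D-type cyclin with the higher message per kilobase of the pair measured. The gene (ENSG00000110092) lies on the plus strand of chromosome 11 from 69641087 to 69654474 (GRCh38). It stood at 1100, 875 and 852 CPM in the untreated replicates 1, 2 and 3. At 8 h its values were 1149, 955 and 858 CPM, and at 24 h they were 684, 576 and 427 CPM. The 3 libraries of 24 h lay below every other library, whereas those of 8 h overlapped with the untreated ones. Replicate 1 was the highest of its group at each time, 1.27 times the mean of the others at 0 h and at 8 h and 1.37 times at 24 h; replicate 1 was likewise highest at all 3 times for CCND3, CDK2 and CDK4. The means were 942 ± 137 CPM (SD, n = 3) at 0 h, 987 ± 148 CPM at 8 h and 562 ± 129 CPM at 24 h. The log2 fold change at 24 h against 0 h was -0.74 (SE 0.18, adjusted p = 0.0442; edgeR's quasi-likelihood test, adjusted by Benjamini-Hochberg). That of 24 h against 8 h was -0.81 (SE 0.18, adjusted p = 0.0342), and that of 8 h against 0 h was 0.07 (SE 0.18, adjusted p = 0.9999).

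The call of CCND1 at 24 h against 0 h was close to the threshold. Of the 9 fits that each left out 1 library, it passed in 2, those without replicate 1 of 24 h or of 8 h, with log2 fold changes from -0.91 to -0.58 over all 9. Adjusted p was 0.153 without replicate 2 and 0.167 without replicate 3 of 24 h, and 0.0527 to 0.0848 without any 1 untreated library or replicate 2 or 3 of 8 h. A fit of the 0 h and 24 h groups alone also ended the call (adjusted p = 0.0737). With the replicate block, the log2 fold change was -0.76 (SE 0.09, adjusted p = 0.000345), and the call held in all 9 such fits. LTO1, on the opposite strand, overlaps 10.3% of the exon bases of CCND1. LTO1 fell as well, with 28.2 CPM at 0 h and 19.4 CPM at 24 h (-0.53 on the log2 scale, adjusted p = 0.0498), and because the strand setting of the counts is not given in the sources used here, its part in the CCND1 value was not tested.

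CCND3 encodes cyclin D3, which binds the same kinases. The gene (ENSG00000112576; chromosome 6, 41934933 to 42050357, minus strand) was measured at 91.2, 63.3 and 62.2 CPM at 0 h. It stood at 77.3, 64.3 and 62.4 CPM at 8 h and at 73.4, 60.2 and 67.5 CPM at 24 h. The groups overlapped at every time, and untreated replicate 1 was the highest library. The log2 fold change at 24 h against 0 h was -0.11 (SE 0.15, adjusted p = 0.672), and it was 0.08 without untreated replicate 1. CCND3 has 2 annotated pseudogene copies, so its counts carry that uncertainty.

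**Figure D1:**
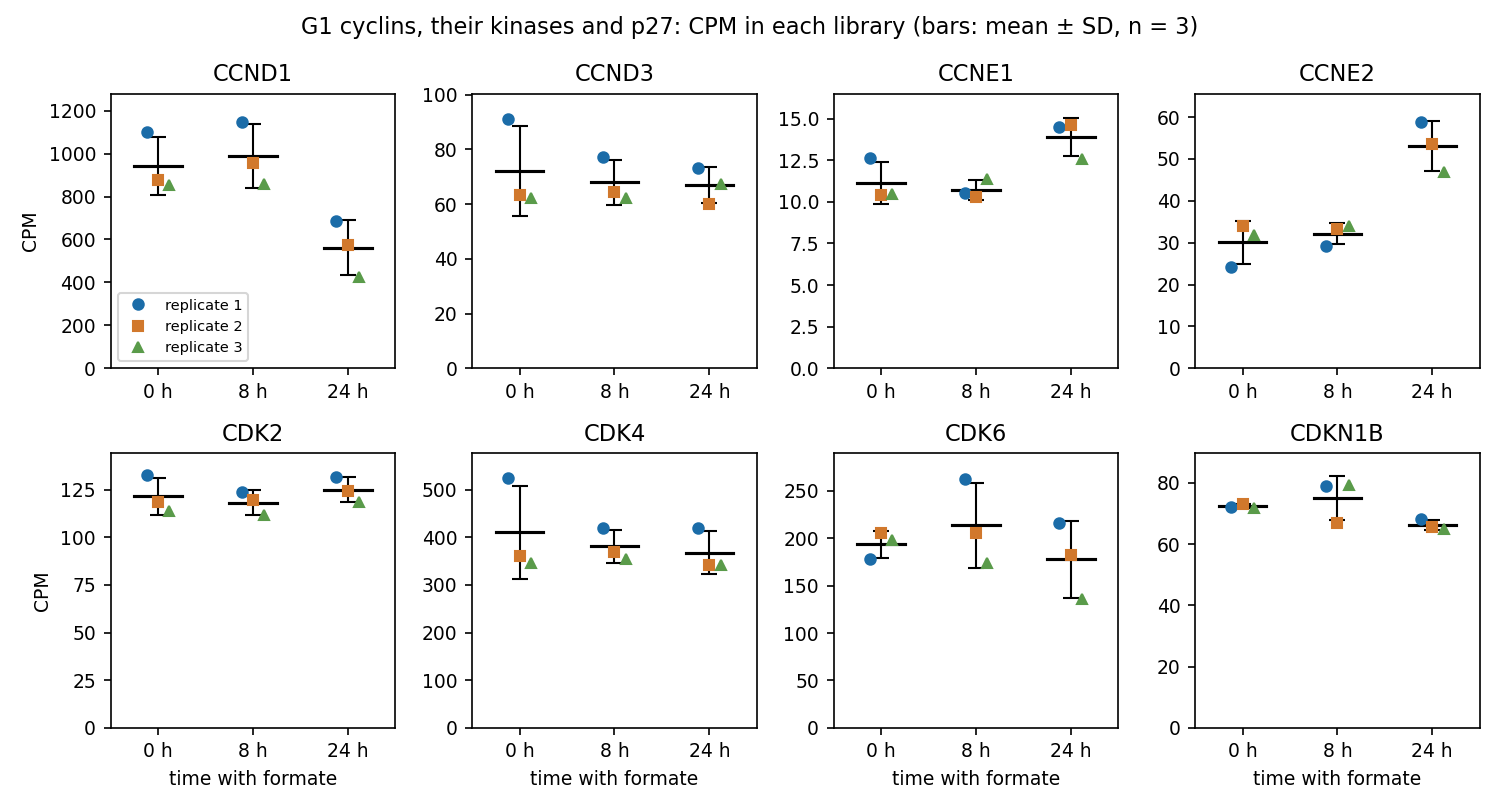
Normalised expression (CPM, linear axes from 0) of the 8 tested G1 genes in each of the 9 libraries by hours with formate; symbols mark the replicate number and bars the mean ± SD of 3 libraries. CCND1 at 24 h (427 to 684 CPM) lies below all earlier libraries and CCNE2 at 24 h (46.8 to 58.7 CPM) above them.

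CDK4 and CDK6 are the catalytic partners of the D-type cyclins, and neither passed the threshold in any of the 3 comparisons. CDK4 (ENSG00000135446; chromosome 12, 57747727 to 57756013, minus strand) stood at 524, 362 and 346 CPM at 0 h. At 8 h it stood at 420, 368 and 355 CPM, and at 24 h at 419, 342 and 341 CPM. Replicate 1 was again the highest library of each group, and the other 6 libraries kept within 341 to 368 CPM. The log2 fold change at 24 h against 0 h was -0.16 (SE 0.16, adjusted p = 0.544), and 0.04 without untreated replicate 1. TSPAN31, on the opposite strand, overlaps 43.2% of the exon bases of CDK4 and stood at 37.7 CPM at 0 h and 45.4 CPM at 24 h (adjusted p = 0.368), and CDK4 has 1 annotated pseudogene copy.

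CDK6 (ENSG00000105810; chromosome 7, 92604921 to 92836594, minus strand) encodes the other partner of the D-type cyclins and varied between replicates. Its values were 178, 206 and 198 CPM at 0 h, 262, 205 and 174 CPM at 8 h and 216, 182 and 136 CPM at 24 h. Replicate 1 was the lowest of the untreated libraries and the highest of both treated groups. At 24 h against 0 h the log2 fold change was -0.12 (SE 0.18, adjusted p = 0.677) and -0.16 with the replicate block (adjusted p = 0.417). Without untreated replicate 1 and with the block, it was -0.38 (adjusted p = 0.00312), so this 1 library decided whether CDK6 was called in the blocked fit.

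CDK2, the partner of the E-type cyclins, kept within 111 to 132 CPM over the 9 libraries. The gene (ENSG00000123374; chromosome 12, 55966769 to 55972784, plus strand) lay at 132, 118 and 114 CPM at 0 h, 124, 119 and 111 CPM at 8 h and 132, 124 and 119 CPM at 24 h. All 3 groups overlapped. At 24 h against 0 h the log2 fold change was 0.04 (SE 0.10, adjusted p = 0.801). Genes on the opposite strand overlap 16.8% of its exon bases, among them PMEL at 1.06 to 1.78 CPM.

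CCNE2 encodes cyclin E2. The gene (ENSG00000175305; chromosome 8, 94879770 to 94896678, minus strand) stood at 24.3, 34.1 and 31.9 CPM at 0 h. Its values were 29.2, 33.4 and 33.9 CPM at 8 h and 58.7, 53.6 and 46.8 CPM at 24 h. The 24 h libraries did not overlap with any of the others, and the lowest of them was above the highest earlier library. The means were 30.1 ± 5.13, 32.2 ± 2.55 and 53.0 ± 5.995 CPM (SD, n = 3). Replicate 1 was the lowest library of its group at 0 h and 8 h and the highest at 24 h. For CCNE2 the log2 fold change at 24 h was 0.82 against 0 h (SE 0.14, adjusted p = 0.0199) and 0.72 against 8 h (SE 0.14, adjusted p = 0.0239). The call against 0 h was lost without replicate 2 (adjusted p = 0.108) or replicate 3 (adjusted p = 0.0979) of 24 h and in a fit of both groups alone (adjusted p = 0.0504), and with the replicate block it passed in all 9 fits that left out 1 library. INTS8 and another gene on the opposite strand overlap 37.1% of the exon bases of CCNE2; INTS8 stood at 65.6 CPM at 0 h and 64.7 CPM at 24 h (-0.02 on the log2 scale, adjusted p = 0.913).

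CCNE1 encodes cyclin E1 and had the lowest level per kilobase of the 8 tested G1 genes. The gene (ENSG00000105173; chromosome 19, 29811898 to 29824308, plus strand) lay at 12.6, 10.4 and 10.5 CPM at 0 h, 10.5, 10.3 and 11.4 CPM at 8 h and 14.5, 14.6 and 12.6 CPM at 24 h. All 24 h values were above all 8 h values, and the lowest of them fell just under the highest untreated one. The log2 fold change at 24 h was 0.32 against 0 h (SE 0.13, adjusted p = 0.149) and 0.37 against 8 h (SE 0.13, adjusted p = 0.111), so neither passed. How CCNE1 and CCNE2 moved relative to each other is given with the proportions between partners.

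**Figure D2:**
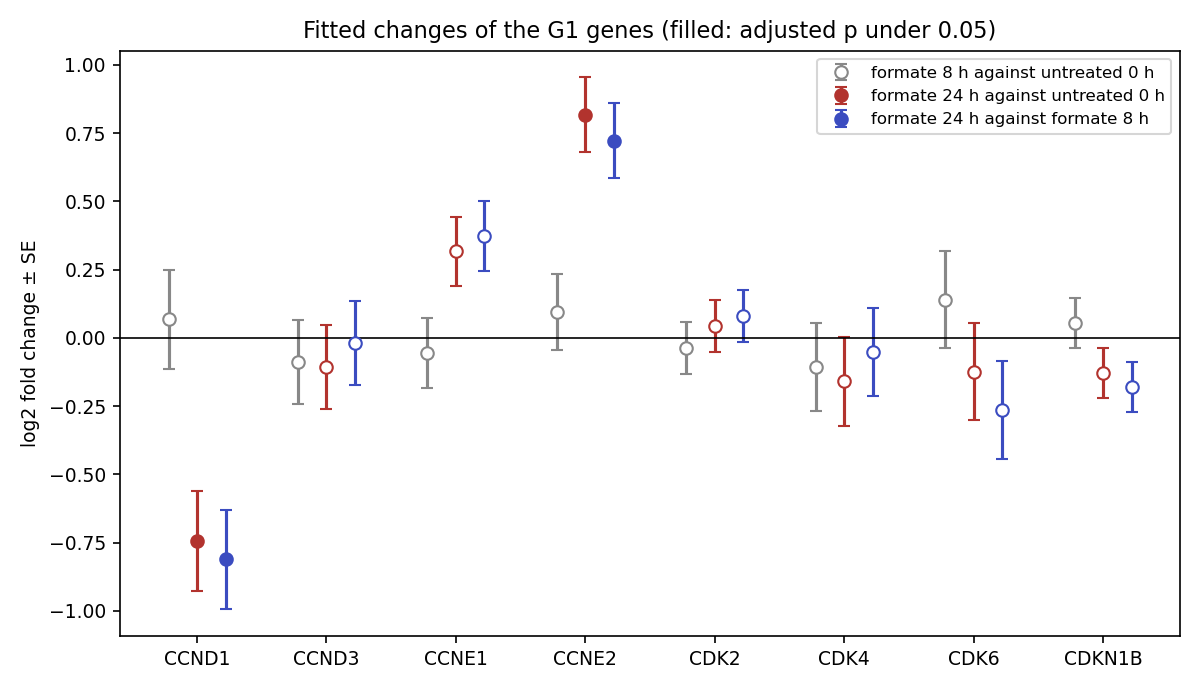
Fitted log2 fold changes ± SE of the 8 tested G1 genes in the 3 comparisons, with filled symbols for an adjusted p under 0.05. CCND1 (-0.74 and -0.81) and CCNE2 (0.82 and 0.72) are filled in both comparisons with 24 h, and no gene is filled at 8 h against 0 h.

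The comparison of 24 h with 8 h shares the 24 h libraries with that of 24 h with 0 h. In it 2 of the 8 genes passed, CCNE2 higher and CCND1 lower, against 4.56% of all tested genes, 2.84% higher and 1.72% lower. By non-overlap of the replicates, CCNE2 was higher and CCND1 and CDKN1B lower at 24 h against 0 h, 3 of 8 genes against 30.2% of all tested genes. Against 8 h, CCNE1 and CCNE2 were higher and CCND1 lower, 3 of 8 against 34.3%. At 8 h against 0 h no G1 gene had groups apart, against 3.31%. No gene of the table passed at 8 h by edgeR or DESeq2. At an unadjusted p under 0.05 there were 79 of 15273 by edgeR and 66 of 23047 by DESeq2. Both shares lie under the 0.05 that evenly spread p-values would give, so the lack of calls at 8 h does not show that nothing changed.

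CDKN1B encodes p27, which binds cyclin and kinase together. The gene (ENSG00000111276; chromosome 12, 12715058 to 12722371, plus strand) was measured at 72.0, 73.2 and 71.9 CPM at 0 h, 78.9, 66.9 and 79.4 CPM at 8 h and 68.1, 65.5 and 65.0 CPM at 24 h. The 24 h values lay below the untreated ones without overlap, but by little: the means were 72.4 ± 0.708 and 66.2 ± 1.64 CPM (SD, n = 3). Its log2 fold change was -0.13 (SE 0.09, adjusted p = 0.383), which did not pass. Against 8 h it was -0.18 (SE 0.09, adjusted p = 0.264).

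CDKN2C encodes p18, an INK4 inhibitor of CDK4 and CDK6. The gene (ENSG00000123080; chromosome 1, 50960745 to 50974633, plus strand) had 0 counts in each of the 9 libraries, out of 209187252 counts in all. A count of 0 allows up to 3 counts, which is 0.0143 CPM over all libraries and up to 0.141 CPM in a single library, counting error only. FAF1, its neighbour on one side, had 0 to 2 counts a library and 10 in all. RNF11 and EPS15 on the other side stood at 86.4 to 113 and 47.0 to 93.1 CPM, in every library far above that floor. Beyond FAF1, BEND5 lay at 0.884 to 2.03 CPM and SPATA6 at 9.19 to 25.96 CPM. Among the genes looked up in this stretch, CDKN2C and FAF1 were those at or near 0 counts. Not every gene of the stretch was looked up, and copy number was not measured here.

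The other INK4 genes differed among themselves. CDKN2A (p16 and ARF) and CDKN2B (p15) had 1 count each over all 9 libraries, whereas MTAP and DMRTA1 on either side of them stood at 87.6 to 136 and 10.3 to 14.9 CPM. CDKN2D (p19) was the INK4 gene with message. It stood at 28.8, 18.3 and 18.8 CPM at 0 h, 22.5, 17.2 and 18.8 CPM at 8 h and 16.1, 12.9 and 12.9 CPM at 24 h, and its 24 h libraries were below all the others. Its log2 fold change at 24 h against 0 h was -0.65 (SE 0.18, adjusted p = 0.0653), and with the replicate block -0.63 (SE 0.10, adjusted p = 0.00163), which passed. Without untreated replicate 1 it was -0.43 (adjusted p = 0.13), and with the block -0.54 (adjusted p = 0.00114); the blocked call held in all 9 fits that left out 1 library and the unblocked one was made in none of them.

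**Figure D3:**
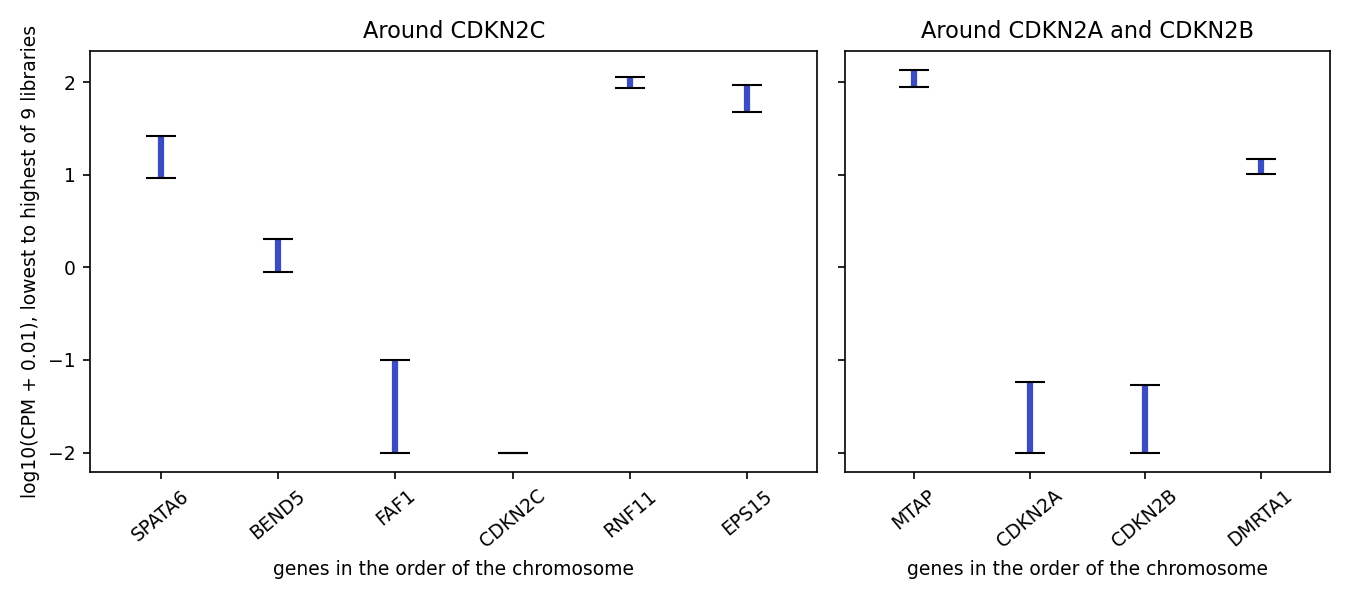
Range over the 9 libraries of the normalised expression, as log10 of CPM plus 0.01. Shown are CDKN2C, CDKN2A, CDKN2B and selected genes beside them, in chromosome order. CDKN2C is at 0 counts in all libraries and FAF1 at 0 to 2, while RNF11 lies at 86.4 to 113 CPM.

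In the CIP/KIP family, CDKN1A (p21), which inhibits CDK2 and is a classic p53 target, rose at 24 h. It stood at 108, 90.2 and 80.3 CPM at 0 h, 103, 98.6 and 89.6 CPM at 8 h and 219, 134 and 134 CPM at 24 h. The 24 h libraries were above all earlier ones, with replicate 1 far above the other two. Its log2 fold change was 0.81 against 0 h (SE 0.18, adjusted p = 0.0358) and 0.74 against 8 h (adjusted p = 0.0458). Without replicate 1 of 24 h, CDKN1A was 0.53 higher than at 0 h on the log2 scale (adjusted p = 0.0448). The call against 0 h held in 3 of 9 fits that left out 1 library and was lost without replicate 2 or 3 of any group (adjusted p 0.0532 to 0.112) or with both groups alone (adjusted p = 0.0713), whereas with the block it held in all 9. CDKN1C (p57) was near the limit of counting, at 0.449 ± 0.101 CPM at 0 h and 0.888 ± 0.159 CPM at 24 h (SD, n = 3; adjusted p = 0.249).

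Levels of different genes were compared as CPM per kilobase of exon. In untreated cells CCND1 was highest at 195 CPM per kilobase, followed by CDK4 at 130, CDK2 at 31.2, CDKN1B at 25.7, CDK6 at 15.8, CCND3 at 12.5, CCNE2 at 6.84 and CCNE1 at 4.38. Among neighbours in this order, only CDK6 and CCND3 overlapped in the untreated libraries. At 24 h CCND1 and CDK4 both stood at 116 CPM per kilobase of exon, and CCNE2 at 12.1 was near CCND3 at 11.6. Over all 9 libraries the ranges of CCND1 and CDK4, of CDK6 and CCND3, of CCND3 and CCNE2 and of CCNE2 and CCNE1 overlapped. Dividing by the longest transcript in place of all exon bases moved 3 genes, with CCND3 next after CDK2 at 30.2 CPM per kilobase, then CDKN1B at 27.2 and CDK6 at 16.7. By that length neither pair was level at 24 h: CCND1 stood at 131 and CDK4 at 177 CPM per kilobase, and CCNE2 at 15.9 and CCND3 at 28.

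**Figure D4:**
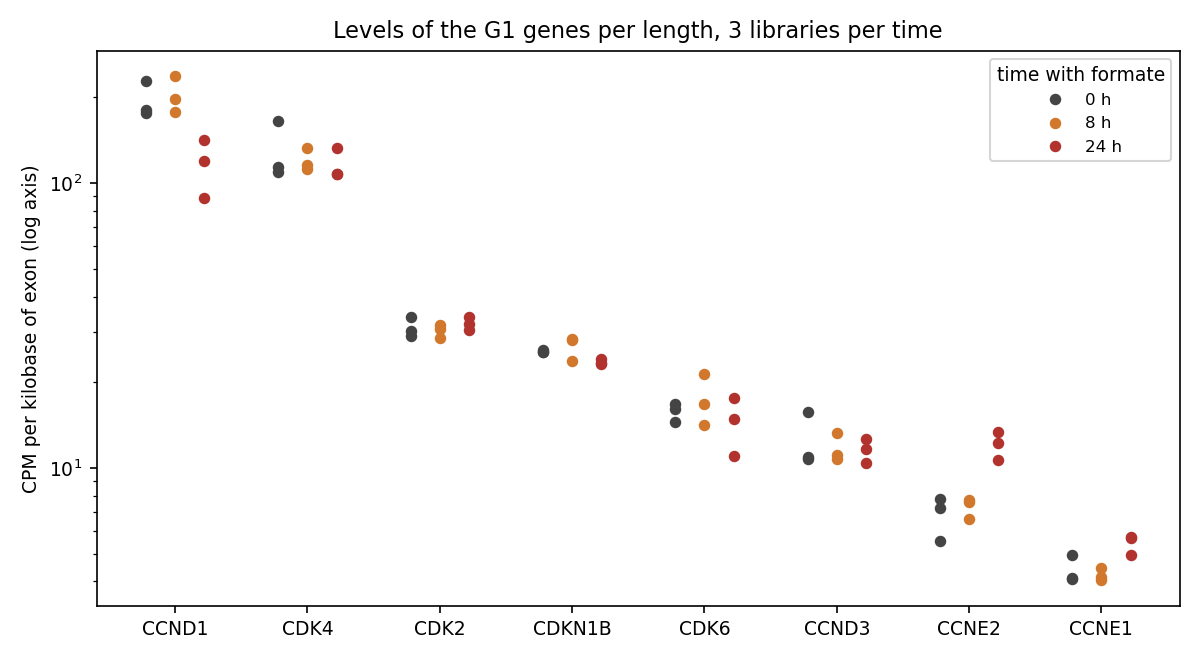
CPM per kilobase of exon (log axis) of the 8 tested G1 genes in each library, ordered by the untreated mean, with colours for 0, 8 and 24 h. By this length CCND1 at 24 h (mean 116) lies at the level of CDK4 and CCNE2 (mean 12.1) at that of CCND3, which the length of the longest transcript does not give (131 against 177, and 15.9 against 28).

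Proportions between partners were taken on the per-kilobase scale. CCND1 made up 94.0 ± 0.436% of the CCND1 and CCND3 message at 0 h, 94.6 ± 0.231% at 8 h and 90.7 ± 2.04% at 24 h (SD, n = 3). All 24 h values were below all others. CCNE2 made up 60.7 ± 6.94% of the CCNE1 and CCNE2 message at 0 h, 63.4 ± 1.82% at 8 h and 68.8 ± 1.15% at 24 h, and here all 24 h values were above all others. For both shares the exact permutation test (two-sided) gave p = 0.1 at 24 h against either earlier time, the smallest that 3 against 3 allows (adjusted over 9 tests of shares 0.225), so that neither could pass 0.05. At 8 h against 0 h the exact p was 0.2 for CCND1 and 0.9 for CCNE2. The ratio of CCND1 and CCND3 message to CCNE1 and CCNE2 message was 23.2, 16.2 and 16.5 at 0 h. It was 23.3, 18.0 and 15.5 at 8 h and 8.10, 7.23 and 6.43 at 24 h. The message of CDK4 and CDK6 relative to that of CCND1 and CCND3 was 0.696 ± 0.0370 at 0 h, 0.640 ± 0.0289 at 8 h and 1.03 ± 0.132 at 24 h. CDK4 made up 88.7, 87.4 and 88.9% of the CDK4 and CDK6 message on average (exact p = 1 at 24 h against 0 h, 0.4 against 8 h and 0.7 at 8 h against 0 h).

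The genes around the G1 cyclins in the pathway were taken as 8 lists with 102 entries, of which 98 were tested. At 24 h against 0 h, 6 rose and 3 fell, 9 of 98 against 4.25% of all tested genes; with the replicate block 23 rose and 15 fell, against 24.1%. Without replicate 2 or replicate 3 of 24 h the unblocked count was 0, as it was over all tested genes, and it was 3 to 5 without replicate 2 or 3 of 8 h or any 1 untreated library. At 8 h none passed, and at 24 h against 8 h 8 rose and 3 fell, 11 of 98 against 4.56% of all tested genes.

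The median log2 fold change of 13 pocket proteins, E2F and DP factors was 0.22, against 0.01 over all tested genes. Of these 13, 1 rose, against 2.47% of all tested genes called higher. It was E2F2, an activating E2F, at 24.5 ± 2.62 CPM at 0 h and 38.8 ± 5.19 CPM at 24 h (SD, n = 3; log2 fold change 0.66, adjusted p = 0.0272). RB1 itself stood at 111 CPM at 0 h and 120 CPM at 24 h (adjusted p = 0.61). Of 15 genes for the turnover of cyclins D and E and of p27, 2 rose, against the same 2.47%, with a list median of -0.02. In this list 6 log2 fold changes were positive and 9 negative. With the replicate block 5 rose and 2 fell, against 24.1% of all tested genes called in that fit. SKP2, which targets p27 for degradation, rose from 50.4 ± 4.81 to 67.8 ± 1.40 CPM (0.43 on the log2 scale, adjusted p = 0.0316). DTL, the substrate receptor of the CUL4 ligase that degrades p21 and CDT1, was counted in this list although its name leaves those substrates out. DTL rose from 74.4 ± 4.20 to 99.1 ± 9.42 CPM (0.41 on the log2 scale, adjusted p = 0.0376).

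Of 22 replication genes under E2F control, 1 rose, against 2.47% of all tested genes called higher. Of the 22, 18 had a positive log2 fold change, and the median was 0.23, against 0.01 over all tested genes. With the replicate block 11 rose and 1 fell, against 24.1% of all tested genes called in that fit. The gene that rose without the block was MCM6, a subunit of the replicative helicase. It stood at 170 ± 12.8 CPM at 0 h and 254 ± 24.0 CPM at 24 h (log2 fold change 0.58, adjusted p = 0.0271). The cyclins and kinase of S, G2 and M phase lay on the other side of 0. Without the block 2 of 6 fell, against 1.77% of all tested genes called lower. All 6 log2 fold changes were negative, and the median was -0.48. With the block 5 of 6 fell, against the same 24.1%. CCNB1, cyclin B1 of mitosis, fell from 509 ± 90.6 to 271 ± 56.6 CPM (-0.91 on the log2 scale, adjusted p = 0.0215), and CCNB2 fell from 184 ± 19.96 to 119 ± 24.1 CPM (-0.64 on the log2 scale, adjusted p = 0.0345). Fewer cells in a phase and less RNA per cell cannot be told apart in bulk RNA.

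None of the 5 activators and chaperone genes of the kinases passed (median -0.27; 2 fell with the block), and none of the 7 MuvB, B-Myb and FoxM1 genes did (median -0.08; 2 fell with the block); 2 of 5 and 2 of 7 compare with the 24.1% of that fit. In the latter FOXM1, a transcription factor of G2 and M genes, stood at 588 CPM at 0 h and 383 CPM at 24 h (adjusted p = 0.0502); it was chosen after its values were seen. Of 27 other cyclins and cyclin-dependent kinases, CDK18 rose from 9.76 ± 1.90 to 17.8 ± 4.35 CPM (adjusted p = 0.0462). In the same list CCNJL fell from 59.3 ± 10.4 to 38.2 ± 3.61 CPM (adjusted p = 0.037). These calls compare with 2.47% of all tested genes called higher and 1.77% called lower. The list median was 0.01.

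**Figure D5:**
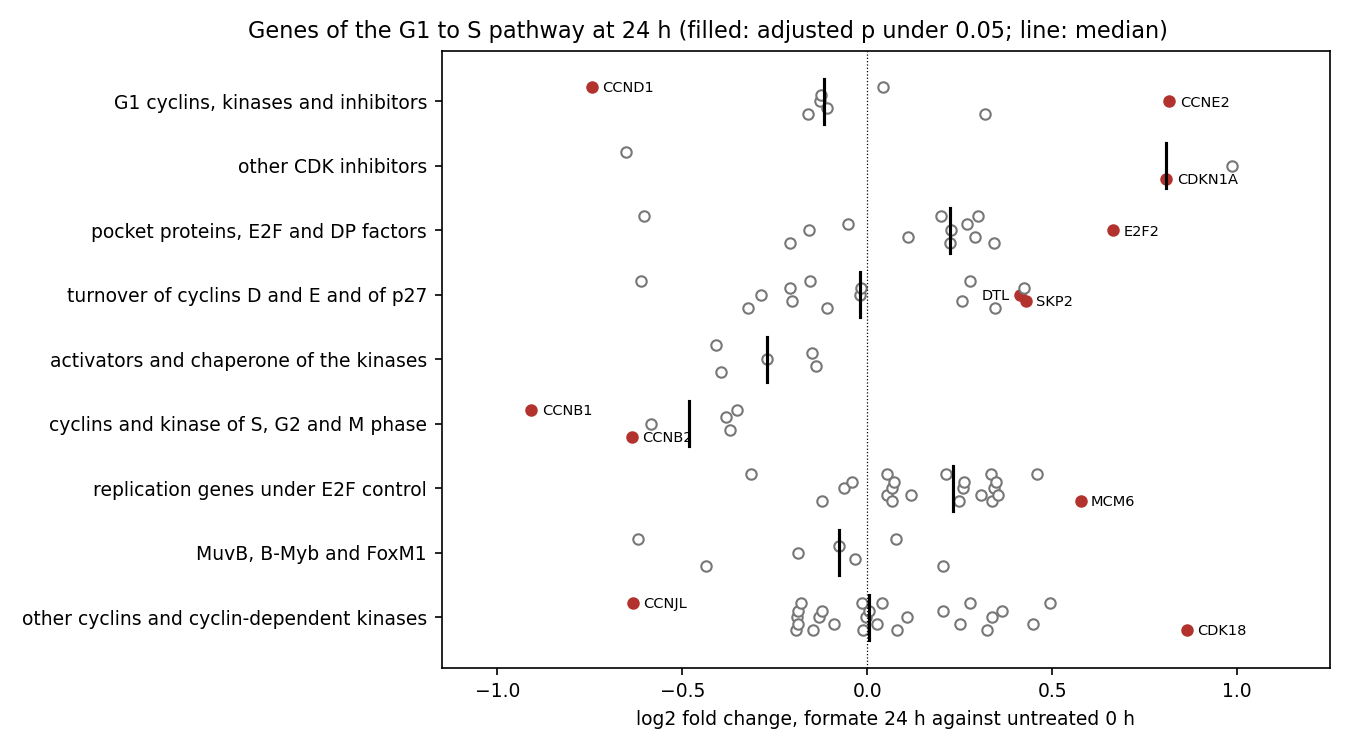
Log2 fold changes at 24 h against 0 h of the tested G1 genes and of the 8 further lists of the pathway; each circle is a gene, filled for an adjusted p under 0.05, and each vertical line is a list's median. The S, G2 and M phase cyclins all lie left of 0 (median -0.48), and 18 of 22 replication genes lie right of it (median 0.23).

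Promoter sequences were searched for the E2F words TTTCCCGC, TTTCGCGC, TTTGCCGC and TTTGGCGC on both strands, from 250 bases before to 50 after each RefSeq start (GRCh38.p14). They stood in 3.31% of 35116 promoters and for 3.99% of 27305 genes in any promoter. Of the G1 genes, 6 had an entry and 0 of these held a word, which so few genes cannot set apart from 3.99%. CCND1, CCND2, CCNE2 and CDK2 were without an entry. The search took only exact matches to these words, so it does not show that a gene lacks E2F sites. Of the replication genes, 12 of 18 held a word (66.7%), as did 5 of 11 pocket protein, E2F and DP genes (45.5%) and 2 of 5 activators and chaperone genes of the kinases (40%), a list whose 5 log2 fold changes at 24 h were all negative. The other 5 lists held a word in 0 to 16.7% of their genes. The replication genes were listed as being under E2F control, so the share of that list was set in part by its choice. The matches, in capitals, of 3 genes that rose at 24 h are shown, E2F2 at chr1:23531258-23531285 (minus strand), DTL at chr1:212035730-212035757 (plus strand) and MCM6 at chr2:135876512-135876605 (minus strand). MCM6 held 4 matches, which overlap in pairs on opposite strands. These 3 are among the 6 pathway genes that rose at 24 h against 0 h, and only a gene with a match could be shown. Of the other CDK inhibitors, the list of CDKN1A, 0 of 4 with an entry held a word. A link between a word and a rise was not tested.
E2F2: cggcacgacgTTTGGCGCtaaaaaaaaa
DTL: gtgacgtcagTTTGGCGCggagtttggc
MCM6: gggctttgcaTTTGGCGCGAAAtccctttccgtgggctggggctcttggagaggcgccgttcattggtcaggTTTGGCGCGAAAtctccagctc

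Across the 9 libraries, the genes whose log2 CPM ran most like that of CCND1 among 10839 genes with a mean of at least 5 CPM were THBS1 (Pearson r = 0.996), RTL9 (r = 0.995) and CAPN2 (r = 0.994). THBS1, which encodes thrombospondin-1, stood at 2037 CPM at 0 h, 2489 CPM at 8 h and 659 CPM at 24 h. For CCNE2 the closest were CARMIL1 (r = 0.988), AHCYL1 (r = 0.979) and DENND6A (r = 0.978); CARMIL1 stood at 28.4, 29.1 and 35.3 CPM. These libraries share the groups and the replicate numbers, so the coefficients are a description.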

How the data were processed

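RNA with an integrity number above 9 was, per the labels' protocols, made into libraries with a kit for stranded mRNA. The submitters' processing notes name bcl2fastq 2.20.0.422, STAR 2.7.4a and GRCh38; the counting program, annotation release and strand setting are not given in the sources used here. The authors deposited raw counts per Ensembl gene, and all 9 columns were matched to samples by time and replicate number. Coordinates and exon lengths came from GENCODE release 29. Low counts were removed with filterByExpr (15273 genes kept), libraries were scaled with TMM, and groups were compared with edgeR 4.0.16 (quasi-likelihood test, two-sided, 1 mean per group over 9 libraries, Benjamini-Hochberg adjustment over all tested genes, threshold 0.05) in R 4.3.3. The same fit was run on simulated counts that varied less between libraries than these and held no replicate effect. That run does not bear on how far the calls here hold. CPM use TMM factors (0.920 to 1.06); likeness used log2 CPM with a prior count of 2. Alternatives were DESeq2 1.42.0, RLE factors, no filter, only the groups compared, the replicate block and each library left out; for CDKN1A and CDKN2D these were added after seeing the data. Same-numbered libraries deviated together between 0 h and 8 h (r 0.414 to 0.476) and between 0 h and 24 h (r 0.164 to 0.367). These numbers, from the titles, were therefore taken as pairs there, but only in the fits with the replicate block. The main fit held no term for them. Between libraries of other numbers r ran from -0.364 to 0.0108 and from -0.40 to 0.27. Replicate 2 of 24 h correlated more with untreated replicate 3 (r = 0.27) than with untreated replicate 2 (r = 0.164). All 10 G1 genes were named, up to 4 called genes per list by smallest p at 24 h against 0 h, all other CDK inhibitors, and the 3 genes most like each called G1 gene. The members and lists were chosen with earlier results of these data known. No libraries of a group were duplicates (chi-square per degree of freedom 7.91 to 54.6).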

Additional observations from a re-analysis of the deposited data

Results flagged for a closer look

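In 2 G1 genes the response at 24 h differed from that at 8 h by edgeR's quasi-likelihood test of the difference. For CCND1 the log2 fold change of 24 h minus 8 h was -0.81 (adjusted p = 0.0342), with 3 of 3 libraries of 24 h below all of 8 h. For CCNE2 it was 0.72 (adjusted p = 0.0239), with 3 of 3 libraries above. Of 9 fits that left out 1 library, the CCND1 call held in 4 and was lost without any 1 library of 8 h or replicate 2 or 3 of 24 h (adjusted p 0.0645 to 0.155). The CCNE2 call held in 5 and was lost without replicate 1 or 3 of 8 h or replicate 2 or 3 of 24 h (adjusted p 0.0673 to 0.134).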

How the results depend on the processing

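At 24 h against 0 h, 649 of 15273 tested genes were called. DESeq2 called 1594 of 14570, and 23 of the other pathway genes. The 2 groups alone gave 124 of 15038, with 0 of the G1 genes and 0 of the pathway genes. The replicate block called 3687 of 15273, and 38 of 98 pathway genes. At 24 h against 8 h, 696 of 15273 were called. DESeq2 gave 1412 of 15016 and 20 pathway genes, and the 2 groups alone 1787 of 15029 and 22. The block gave 3130 of 15273 and 32 of 98 there. In that comparison same-numbered libraries of replicate 2 did not deviate together (r = 0.0367), so the numbers are only shared; the block called CCNE1 there (log2 fold change 0.37, adjusted p = 0.0441). The block changed no G1 gene's call at 24 h or 8 h against 0 h. The pathway counts under each alternative were chosen after seeing the data. Length by longest transcript moved 3 genes in the order and gave CCND1 shares of 88.0, 88.9 and 81.9%. The cause of these shifts was not tested.

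Leaving out 1 library gave 0 to 899 genes at 24 h against 0 h (block 2213 to 3816), with 0 by edgeR without replicate 2 or 3 of 24 h (2550 and 2563 genes at an unadjusted p under 0.05; DESeq2 was not run without them), and 0 to 2545 against 8 h (block 1179 to 5432). G1 genes called ran from 0 to 2 (block 2 to 4) and 0 to 3 (block 2 to 5), pathway genes from 0 to 11 (block 24 to 41) and 0 to 29 (block 13 to 55). Log2 fold changes of uncalled G1 genes changed sign in some of these fits. At 8 h against 0 h the ranges were -0.046 to 0.19 (CCND1), -0.18 to 0.11 (CCND3; block -0.13 to 0.024), -0.11 to 0.038 (CCNE1; block -0.14 to 0.029), -0.040 to 0.19 (CCNE2; block -0.048 to 0.18), -0.071 to 0.025 (CDK2), -0.20 to 0.10 (CDK4; block -0.13 to 0.016) and -0.026 to 0.28 (CDK6; block -0.098 to 0.30). At 24 h against 0 h they were -0.20 to 0.076 (CCND3), -0.0046 to 0.091 (CDK2), -0.27 to 0.037 (CDK4) and -0.29 to 0.032 (CDK6; block -0.38 to 0.019). Against 8 h they were -0.092 to 0.065 (CCND3; block -0.11 to 0.052) and -0.16 to 0.0054 (CDK4).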
